A study of Mus musculus with 7 samples.

Results

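Mast cells are long-lived cells of the myeloid lineage that settle in tissues, depend on the receptor tyrosine kinase Kit and store proteases, histamine and serotonin in granules held together by the proteoglycan serglycin. Cross-linking of IgE on the receptor FcεRI, the alarmin IL-33 or cationic peptides make them release these stores and synthesize eicosanoids from arachidonate. In the heart they lie mostly along vessels, and connective tissue mast cells of the mouse carry the chymases Mcpt4 and Cma1 (mMCP-5), the tryptases Tpsb2 (mMCP-6) and Tpsab1 (mMCP-7), and the carboxypeptidase Cpa3.

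Cardiac mast cells were taken as barcodes with at least 1 UMI (a counted RNA molecule) of at least 3 of the 5 genes Cpa3, Cma1, Mcpt4, Tpsb2 and Kit, among kept barcodes, that is those in which 500 or more UMIs and 300 or more genes were counted and mitochondrial genes gave 15% of UMIs or less. The rule found 99 members in 40158 kept barcodes of mouse heart, out of 44318 deposited. The levels of these 5 genes chose the members, so they are given as a description, with no test. RNA of single cells was counted in droplets, in 7 libraries of 6 groups. WT 8 week MI came from C57BL6/J adults after myocardial infarction, and WT 8 week sham from C57BL6/J adults after a sham operation. MerTK KO P1 MI and MerTK KO P1 sham came from neonates labelled MerTK KO, a label that names the efferocytosis receptor Mertk, after the same operations, and WT P1 MI and WT P1 sham from C57BL6/J neonates. WT P1 MI had 2 libraries, replicates 1 and 2, called the WT P1 MI pair and given in that order, and every other group had 1. All cells had passed digestion with collagenase and DNase, removal of dead cells and a CD45+ enrichment whose product was mixed again with CD45- cells, so the share of a cell type among barcodes is not its share in the heart. The labels give neither the time from operation to harvest, nor the number of hearts per library, nor the part of Mertk that was deleted.

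Mast cells were found in 5 of the 7 libraries. WT 8 week MI had 0 and WT 8 week sham 6. MerTK KO P1 MI had 7 and MerTK KO P1 sham 0. The WT P1 MI pair had 9 and 59, and WT P1 sham 18. Only WT P1 MI replicate 2 and WT P1 sham held the 15 cells asked for before a comparison of ages or treatments, so adult and neonatal mast cells are shown side by side and their difference in expression was not tested. Total UMIs per library lay between 7707724 (WT 8 week MI) and 130847843 (WT P1 MI replicate 2), and median UMIs per kept barcode between 2152 and 11408. Mertk itself, counted by 3' tags that may lie outside the deleted part and so do not check the label, was at 22.7 CPM (UMIs of the gene over all UMIs, times 1e6) in macrophage barcodes of MerTK KO P1 MI and 41.1 CPM in those of MerTK KO P1 sham, against 54.4, 18.04 and 47.9 CPM in those of the WT P1 MI pair and WT P1 sham. The libraries shared 160 barcode sequences in all, of which 0 belonged to mast cells.

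Of the 99 members, 62 carried no set of markers of another lineage, meaning fewer than 3 of 4 marker genes of macrophages, neutrophils, B cells, T cells, endothelial cells, fibroblasts or cardiomyocytes. These are called single-lineage members. They numbered 5 in WT 8 week sham, 4 in the MerTK KO P1 MI cells, 9 and 30 in the WT P1 MI pair, and 14 in WT P1 sham. The other 37, called mixed members, held 71.6% of all UMIs of members, and 29 of them came from WT P1 MI replicate 2. Among mixed members 15 carried fibroblast, 14 macrophage, 10 endothelial, 9 neutrophil, 5 cardiomyocyte and 2 T cell markers, some more than 1 set. Whether a mixed barcode held a mast cell with a second cell or RNA from the suspension was not tested. Levels per library below are therefore those of single-lineage members unless stated, and each fit was run with all 99 members and again with the 62.

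The proximal promoters of the protease genes are shown because Cpa3, Cma1 and Mcpt4 chose the members, because Prss34 was uneven among them, and because Gata2, a factor that binds GATA motifs and is required for mast cells, was among the genes higher in members. Each line gives the 250 bases before a RefSeq transcription start on GRCm38.p6, 5′ to 3′ on the gene's own strand, and capitals mark GATAA read on either strand (TTATC on the printed one).
Cpa3 promoter, chr3:20242182-20242431, minus strand: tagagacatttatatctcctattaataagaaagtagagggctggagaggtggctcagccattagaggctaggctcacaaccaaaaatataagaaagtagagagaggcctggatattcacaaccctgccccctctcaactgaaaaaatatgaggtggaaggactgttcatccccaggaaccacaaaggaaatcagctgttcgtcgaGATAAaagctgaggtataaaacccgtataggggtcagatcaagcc
Cma1 promoter, chr14:55944676-55944925, minus strand: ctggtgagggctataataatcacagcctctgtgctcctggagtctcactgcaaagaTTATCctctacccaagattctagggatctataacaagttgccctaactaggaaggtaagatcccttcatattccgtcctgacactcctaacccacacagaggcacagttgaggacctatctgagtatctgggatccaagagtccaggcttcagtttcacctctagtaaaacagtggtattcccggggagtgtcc
Mcpt4 promoter, chr14:56062311-56062560, minus strand: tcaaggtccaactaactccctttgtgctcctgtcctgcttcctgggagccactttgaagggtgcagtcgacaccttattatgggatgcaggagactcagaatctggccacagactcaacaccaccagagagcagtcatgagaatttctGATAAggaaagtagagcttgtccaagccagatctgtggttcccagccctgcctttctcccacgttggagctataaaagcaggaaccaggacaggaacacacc
Prss34 promoter, chr17:25298144-25298393, plus strand: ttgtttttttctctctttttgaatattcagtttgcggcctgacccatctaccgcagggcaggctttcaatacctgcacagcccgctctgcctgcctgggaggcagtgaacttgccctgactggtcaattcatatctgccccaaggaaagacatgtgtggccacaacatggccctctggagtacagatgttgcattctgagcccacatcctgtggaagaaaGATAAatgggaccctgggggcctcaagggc
Each of these windows held 1 match, whose first base lay 45 bases before the start in Cpa3, 194 in Cma1, 102 in Mcpt4 and 30 in Prss34. The motif is short and common. It stood in 22.6% of all 32851 windows of the table, in 14.6% of 12129 windows of tested genes, and in 19.8% of 338 windows of genes higher in mast cells. Windows of Kit, Hdc and Mrgprb1 held 0 matches and that of Mrgprb2 held 1. Tpsb2 and Tpsab1 were not matched in the table. A match is a description of letters and not of binding.

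Granule proteins are the products of 4 of the 5 rule genes. The single-lineage members held 14964 UMIs of all genes in WT 8 week sham, 12136 in the MerTK KO P1 MI cells, 64766 and 179910 in the WT P1 MI pair, and 88808 in WT P1 sham. Cma1 (chr14:55941451-55944675, minus strand) codes for mMCP-5, which is a chymase by descent. It had 615 UMIs in single-lineage members of WT 8 week sham, 1194 in MerTK KO P1 MI, 3976 and 15078 in the WT P1 MI pair, and 6776 in WT P1 sham. Mcpt4 (chr14:56059629-56062313, minus strand) lies 115 kb from Cma1 and codes for the main chymase of connective tissue mast cells. It had 348, 377, 1635, 6143 and 3625 UMIs in the same libraries and order. Cpa3 (chr3:20215620-20242181, minus strand), the carboxypeptidase, had 130, 240, 1123, 4790 and 2361 UMIs. Tpsb2 (chr17:25366305-25369098, plus strand), the tryptase mMCP-6, had 137, 446, 1433, 4394 and 2844 UMIs. Kit (chr5:75574916-75656722, plus strand), the receptor of stem cell factor, had 26, 6, 57, 150 and 74 UMIs. These 5 genes made up between 3.98% and 42.6% of the UMIs of a single-lineage member (median 16.0%), against between 0.00549% and 11.2% (median 3.23%) in mixed members.

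**Figure D1:**
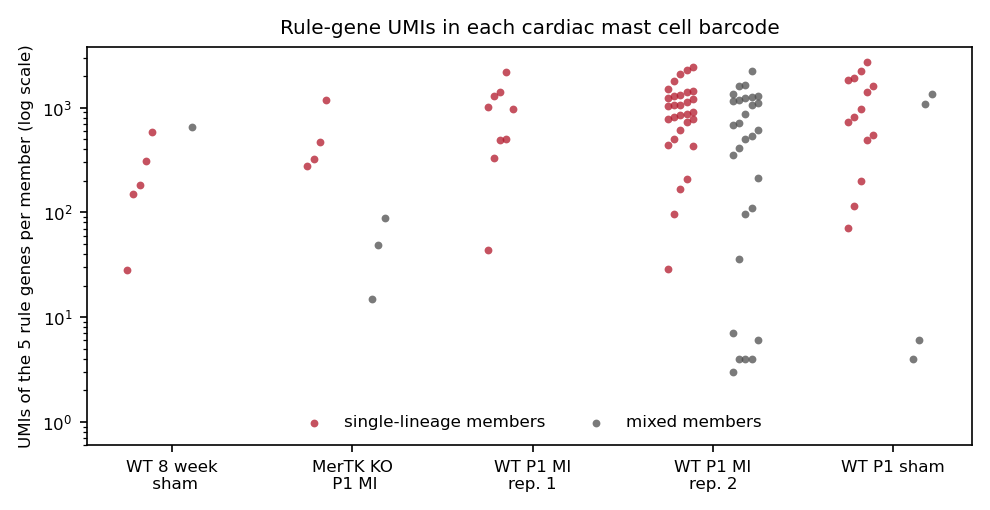
UMIs of the 5 rule genes together in each mast cell barcode, on a log scale, by library. Red points are the 62 single-lineage members, between 28 and 2699 UMIs, and grey points are the 37 mixed members, 8 of which had fewer than 10.

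The plot of rule-gene UMIs shows 2 kinds of member. Single-lineage members had a median of 827.5 rule-gene UMIs in a median of 5190 UMIs. A group of 8 members held fewer than 10 rule-gene UMIs in barcodes of 13319 to 97596 UMIs, and all 8 were mixed. At the threshold of 3 genes, members with exactly 3 had 28 rule-gene UMIs in WT 8 week sham (1 barcode), 49 and 465 in MerTK KO P1 MI (2 barcodes), 3 to 7 in WT P1 MI replicate 2 (6 barcodes) and 4 to 6 in WT P1 sham (2 barcodes). Barcodes just outside, with exactly 2 genes, had 2 to 10 UMIs in WT 8 week sham (14 barcodes), 2 to 7 in MerTK KO P1 MI (3 barcodes), 2 to 5 in WT P1 MI replicate 1 (9 barcodes), 2 to 14 in WT P1 MI replicate 2 (71 barcodes) and 2 to 13 in WT P1 sham (12 barcodes). All 5 genes were seen in 61 members, 4 in 27 and 3 in 11.

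Markers of other lineages are given for single-lineage members as a description, since these were chosen for carrying few of them. The 8 macrophage markers summed to 267 CPM in WT 8 week sham, 165 in the MerTK KO P1 MI cells, 30.9 and 117 in the WT P1 MI pair, and 45.0 in WT P1 sham. The 6 neutrophil markers summed to 134, 165, 15.4, 406 and 11.3 CPM, against 10370 CPM over all members of WT P1 MI replicate 2 and 11068 CPM over all members of MerTK KO P1 MI. Mcpt8, which defines basophils, the nearest relative of mast cells in transcripts, had a UMI in 4 of the 62 single-lineage members. Of 4 genes listed for mucosal mast cells, Mcpt1 and Mcpt9 had 0 UMIs in single-lineage members (1 and 0 in all members) and Mcpt2 had 38. Gzmb, granzyme B, the only one of the 4 that could be tested, was higher than in all other kept barcodes by a log2 fold of 2.30 ± 0.45 (adjusted p = 1.79e-05, edgeR's quasi-likelihood test) in all members and 3.13 in single-lineage members. It had 0, 0, 2, 29 and 3 UMIs in single-lineage members of WT 8 week sham, MerTK KO P1 MI, the WT P1 MI pair and WT P1 sham. The marker Ptprc (CD45) had a UMI in 31 of the 62.

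Mast cells made up 0% of kept barcodes in WT 8 week MI (0 of 3130, where 3 counts would be 0.0958% and the exact 95% upper limit is 0.118%) and 0.0392% in WT 8 week sham (exact 95% binomial interval 0.0144% to 0.0853%). They made up 0.106% in MerTK KO P1 MI (0.0426% to 0.218%) and 0% in MerTK KO P1 sham (0 of 2611, where 3 counts would be 0.115% and the exact upper limit is 0.141%). In WT neonates they were 1.16% in WT P1 MI replicate 1 (0.534% to 2.20%), 0.582% in WT P1 MI replicate 2 (0.443% to 0.7503%) and 1.13% in WT P1 sham (0.672% to 1.78%). Each of the 3 WT neonatal libraries was above all others, and the intervals of WT P1 MI replicate 2 and WT P1 sham overlapped. Intervals and limits cover counting error only, and the recombination of CD45+ and CD45- cells can set the shares.

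**Figure D2:**
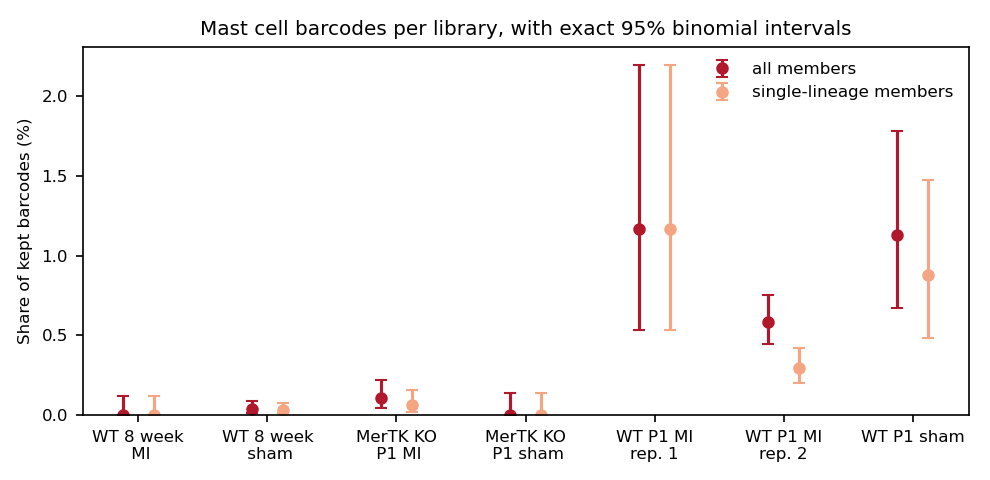
Share of kept barcodes that were mast cells, in percent, for each of the 7 libraries, with exact 95% binomial intervals. Dark points count all members and pale points single-lineage members. The 3 WT P1 libraries lie between 0.582% and 1.16% for all members and the other 4 at or below 0.106%.

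Over libraries, the share averaged 0.0196% ± 0.0277 at 8 weeks (SD, n = 2) and 0.597% ± 0.549 at P1 (SD, n = 5), a difference of -0.577 percentage points. The P1 group joined WT libraries with 2 MerTK KO libraries, whereas both 8 week libraries were WT, so genotype is mixed into this comparison of ages. A comparison of WT libraries alone was not run. A two-sided exact permutation test over libraries gave p = 0.286, and the smallest p this design can reach is 0.0952. When each of the 7 libraries was left out in turn, the difference lay between -0.727 and -0.435 points and the same exact permutation test gave p between 0.133 and 0.667, with p = 0.133 without MerTK KO P1 sham and at least 0.4 without any other. Among barcodes with a Ptprc UMI the share was 0% for WT 8 week MI and 0.0209% for WT 8 week sham. It was 0.0404% for MerTK KO P1 MI and 0% for MerTK KO P1 sham, 2.64% and 1.24% for the WT P1 MI pair and 1.26% for WT P1 sham. After every barcode was thinned to 1500 UMIs the shares were 0.0279% in WT 8 week sham, 0.0803% in the MerTK KO P1 MI cells, 1.14% and 0.533% in the WT P1 MI pair, and 0.960% in WT P1 sham, and the order of these libraries stayed the same. Shallower barcodes were left out for this, so that 14338, 6227, 700, 9187 and 1458 barcodes of these libraries entered. MerTK KO P1 sham, which had no member, held 1 barcode with 4 rule genes and 104 rule-gene UMIs that failed the filter with 34.4% mitochondrial UMIs.

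Against all other kept barcodes of the same 5 libraries, 309 of 12026 genes (2.57%) were higher in mast cells and 676 (5.62%) were lower, by edgeR's quasi-likelihood test with library as a block, an adjusted p under 0.05 and at least a 2-fold difference. With the 62 single-lineage members the counts were 530 of 11517 (4.6%) higher and 2431 (21.1%) lower, of which 283 and 572 genes were shared with the first fit. These shares over all genes are the background for the counts of each gene list that follow. The rule genes were left out of both fits. Because members were chosen by expression, this fit describes them against the rest of the heart suspension and is not independent evidence of what they are. The median log2 difference of all tested genes was -0.30, and -0.19 when total counts replaced TMM scaling, a shift of 0.11. Counts fell to 176 higher genes without WT P1 MI replicate 2 and to 199 without WT P1 sham, the libraries with the most mast cells.

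Granule proteases outside the rule were among the 20 largest differences. Tpsab1, the tryptase mMCP-7, was higher by a log2 fold of 14.09 ± 0.62 (SE, adjusted p = 1.8e-108, edgeR's quasi-likelihood test) in all members and by 15.05 in single-lineage members. Prss34, the protease mMCP-11 of mast cells and basophils, was higher by 10.54 ± 0.64 and 9.83. Ctsg, cathepsin G, was higher by 6.43 ± 0.47 and 7.61, in 4 of 5 libraries. It had a UMI in 1 of 5 single-lineage cells of WT 8 week sham and 2 of 4 of MerTK KO P1 MI. The WT P1 MI pair had one in 1 of 9 and 5 of 30 cells, and WT P1 sham in 3 of 14. Single cells held 18 of 18, 4 of 5, 1 of 1, 40 of 66 and 25 of 35 Ctsg UMIs in the same order. Tpsg1, a membrane-anchored tryptase, and Mcpt2, a mucosal-type chymase, had 0 UMIs in all other kept barcodes and averaged 119 and 105 CPM in single-lineage members. Of the 7 tested genes of the protease list 4 were higher, Ctsl alone was lower and the median log2 difference was 2.30. In single-lineage members 5 were higher and 2 lower, Ctsl and Dpp4. Ctsl, a lysosomal protease common in macrophages, was lower by a log2 fold of -2.38 ± 0.49 (adjusted p = 5.23e-05).

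Genes for amines and the granule matrix had 8 of 14 higher, 0 lower and a median log2 difference of 2.58, and 9 higher and 0 lower in single-lineage members. Hdc, which makes histamine, stood at 802 CPM in WT 8 week sham, 2884 in the MerTK KO P1 MI cells, 2131 and 2385 in the WT P1 MI pair, and 2151 in WT P1 sham, against 68.9, 149, 27.8, 43.8 and 44.0 CPM in all other barcodes of these libraries. Mast cells were higher in each library, and the log2 fold was 4.06 ± 0.47 (adjusted p = 2.3e-15) in all members and 4.78 in single-lineage members. Tph1, the rate-limiting enzyme of peripheral serotonin synthesis, had 802, 3131, 803, 595 and 191 CPM in the same order, against at most 0.210 CPM in other barcodes, and a log2 fold of 11.66 ± 0.65 (adjusted p = 9.08e-68). Of 38 Tph1 UMIs in single-lineage members of MerTK KO P1 MI 30 lay in 1 cell, and WT 8 week sham had 12 UMIs. Slc18a2, the vesicular transporter that loads both amines, was higher by 6.46 ± 0.45, Slc6a4, the serotonin transporter, by 7.04 ± 0.44, and Maob, which breaks amines down, by 6.70 ± 0.45. Srgn, serglycin, was abundant in other leukocytes as well and was higher by 2.42 ± 0.35 (adjusted p = 6.81e-10), while Ndst2, a heparin sulfotransferase, Papss2, which supplies activated sulfate, and Ddc, which completes serotonin synthesis, were the other genes called.

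**Figure D3:**
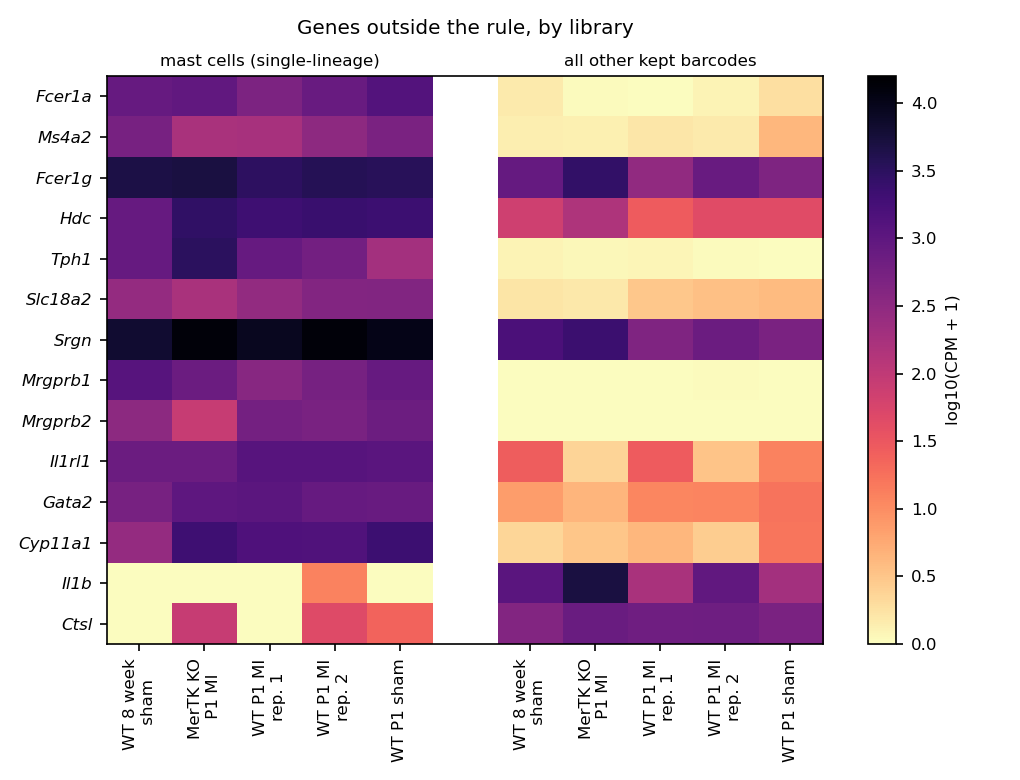
Level of 14 genes outside the rule, as log10(CPM + 1), in single-lineage mast cells (left block) and all other kept barcodes (right block) of 5 libraries. Fcer1a, Tph1, Mrgprb1 and Mrgprb2 are at or near 0 in other barcodes of every library, while Il1b and Ctsl are higher there.

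The IgE receptor and its signalling genes gave 8 of 18 higher and 0 lower (median 1.12), and 10 higher and 1 lower in single-lineage members. Fcer1a, the IgE-binding chain, stood at 802 CPM in WT 8 week sham, 906 in the MerTK KO P1 MI cells, 479 and 795 in the WT P1 MI pair, and 1306 in WT P1 sham, against at most 0.839 CPM in other barcodes. Its log2 fold was 10.50 ± 0.62 (adjusted p = 1.28e-60). Ms4a2, the beta chain, was higher by 7.44 ± 0.46, Rgs13, which restrains signalling from G-protein-coupled receptors, by 10.79 ± 0.54, and the adaptors Lat2 and Lat by 3.69 ± 0.48 and 1.59 ± 0.42. Btk, a kinase downstream of the receptor, was higher by 1.68 ± 0.41. Fcer1g, the gamma chain that macrophages and neutrophils also use, was higher by 1.53 ± 0.37 (adjusted p = 0.000949), and against barcodes with a Ptprc UMI its log2 difference of 0.42 was not called. Cd63, which marks granule membranes, was higher by 1.30 ± 0.38 (adjusted p = 0.0118) and lost the call without WT P1 sham or without WT P1 MI replicate 1. The kinases Lyn and Fyn were at 0.17 ± 0.46 and -0.48 ± 0.47 and were not called in either set of members. Syk, the kinase that the receptor chains recruit, was at -1.18 ± 0.49 in all members (adjusted p = 0.132) and was lower in single-lineage members, by -1.74 ± 0.60 (adjusted p = 0.0188). Against the macrophage barcodes described below it was lower in both sets, by -2.44 ± 0.47 (adjusted p = 0.000147) and -2.81 ± 0.58 (adjusted p = 1.83e-05).

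Other receptors had 8 of 19 higher and 0 lower in all members (median 1.12), and 10 higher and 5 lower in single-lineage members (median 1.66). Il1rl1, the IL-33 receptor ST2, was at 735 CPM in WT 8 week sham, 742 in the MerTK KO P1 MI cells, 1189 and 1184 in the WT P1 MI pair, and 1092 in WT P1 sham, against 26.5, 1.34, 26.8, 2.30 and 11.1 CPM in other barcodes. Its log2 fold was 5.91 ± 0.53 (adjusted p = 5.39e-26). Mrgprb2, the mouse receptor for basic secretagogues, had 197 UMIs in single-lineage members and 2 in all 40059 other kept barcodes. Mrgprb1, its neighbour 94.6 kb away, had 223 UMIs and 6. Cd200r3, an activating receptor shared with basophils, was higher by 7.25 ± 0.53 and Adora3, the adenosine A3 receptor, by 6.11 ± 0.43. Ptger3, a prostaglandin E2 receptor, the cytokine receptor chains Csf2rb and Csf2rb2 and the integrin Itgb7 completed the genes called in all members. The genes lower in single-lineage members were the anaphylatoxin receptors C3ar1 and C5ar1, the leukotriene receptor Cysltr1, the sphingosine-1-phosphate receptor S1pr1 and Tlr4, the receptor for lipopolysaccharide. C3ar1 was at -2.16 ± 0.67 (adjusted p = 0.00772) in single-lineage members and -0.31 ± 0.45 (adjusted p = 0.813) in all members.

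Of 19 tested transcription factors 4 were higher and 0 lower in all members, with a median log2 difference of 0.01, and 7 were higher and 6 lower in single-lineage members, with a median of 0.12. Gata2 stood at 535 CPM in WT 8 week sham, 989 in the MerTK KO P1 MI cells, 1050 and 828 in the WT P1 MI pair, and 799 in WT P1 sham, against 6.31, 3.47, 10.2, 10.96 and 15.7 CPM in other barcodes. The other factors called in all members were Mitf, a regulator of mast cell granule genes, Tal1 and Meis2, both known from haematopoietic progenitors. Cebpa, which favours granulocytes and monocytes over mast cells, had 0 UMIs in all 62 single-lineage members. It was called lower there (adjusted p = 0.0189) and not in all members (adjusted p = 0.199). Spi1 (PU.1), a myeloid factor, was at -1.39 ± 0.44 (adjusted p = 0.00931) in single-lineage members and -1.17 ± 0.50 (adjusted p = 0.146) in all members, and Lmo2, Bhlhe40, Tfe3 and Tfeb were the other factors called lower in single-lineage members. In the exocytosis list, 3 of 13 genes were higher, namely Rab27b at 6.04 ± 0.51 and Stx3 at 2.37 ± 0.40, which act in granule docking and fusion, and Unc13d. The median of that list was -0.13 and changed sign to 0.20 with total counts. Cyp11a1, the enzyme that makes pregnenolone from cholesterol, was also among the 20 largest differences. It stood at 267 CPM in WT 8 week sham, 2060 in the MerTK KO P1 MI cells, 1436 and 1367 in the WT P1 MI pair, and 2162 in WT P1 sham, with a log2 fold of 7.58 ± 0.56 (adjusted p = 2.05e-38, edgeR's quasi-likelihood test). These levels rested on 4, 25, 93, 246 and 192 UMIs in the same order, and 21 of the 25 lay in 1 cell.

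The series concerns arachidonate metabolism in macrophages, so the eicosanoid genes of mast cells were set beside those of macrophage barcodes (at least 3 of C1qa, C1qb, Csf1r and Adgre1). In that fit 378 of 7478 genes (5.05%) were higher in mast cells and 667 (8.92%) lower, and of 14 tested eicosanoid genes 1 was higher, 5 were lower and the median log2 difference was -0.91, against -0.18 over all tested genes (-0.05 with total counts in place of TMM). Alox5, 5-lipoxygenase, which starts leukotriene synthesis, was the gene that was higher. It had 134 CPM in WT 8 week sham, 165 in the MerTK KO P1 MI cells, 340 and 178 in the WT P1 MI pair, and 180 in WT P1 sham, against 58.3, 21.2, 55.2, 24.6 and 59.3 CPM in macrophages. Its UMIs in these mast cells numbered 2, 2, 22, 32 and 16 in the same order. The log2 fold was 1.69 ± 0.37 (adjusted p = 0.000807, edgeR's quasi-likelihood test, higher in 5 of 5 libraries) in all members and 2.22 in single-lineage members. Alox5ap, the protein that presents arachidonate to this enzyme, was at -0.97 ± 0.32 (adjusted p = 0.0312), short of a 2-fold difference.

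Of 14 tested eicosanoid genes 8 were not called against macrophages in all members, among them the downstream enzymes Lta4h (0.38 ± 0.42), Ptges2 (-0.43 ± 0.57), Ptges3 (-0.69 ± 0.39) and Ptgis (-0.33 ± 0.55), while Ltc4s, Tbxas1, Hpgd, Ptgs2 and Ptgs1 were lower. With single-lineage members 12 could be tested, and 1 was higher and 6 lower. Over all genes of that fit 362 of 5963 (6.07%) were higher and 919 (15.4%) lower. Ltc4s, leukotriene C4 synthase, had 0 UMIs in WT 8 week sham, 0 in the MerTK KO P1 MI cells, 1 in each WT P1 MI replicate and 0 in WT P1 sham, against 845, 95.5, 461, 100 and 240 CPM in macrophages. In all members it was lower by a log2 fold of -3.20 ± 0.51 (adjusted p = 8.75e-06). Tbxas1, thromboxane synthase, had 0 UMIs in the single-lineage members of each library, against 118, 51.8, 142, 46.6 and 99.7 CPM in macrophages, and in all members was lower by -2.91 ± 0.54 (adjusted p = 9.29e-05). Single-lineage members of WT 8 week sham and MerTK KO P1 MI held only 14964 and 12136 UMIs of all genes. At that depth a 0 for Tbxas1 in either library, or for Ltc4s in MerTK KO P1 MI, could also occur at the macrophage level. Hpgd, which inactivates prostaglandins, was lower by -2.55 ± 0.51 (adjusted p = 0.000202). Ptgs2, the inducible cyclooxygenase, had 3 UMIs in all single-lineage members together and was lower by -1.80 ± 0.52 (adjusted p = 0.0113), a call lost without WT 8 week sham or without MerTK KO P1 MI. Ptgs1, the constitutive form, had 9 UMIs and was lower by -1.31 ± 0.42 (adjusted p = 0.0264), a call lost with DESeq2 and without any 1 of 4 of the 5 libraries.

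Hpgds, the haematopoietic prostaglandin D2 synthase that gives mast cells their main prostanoid, had 200 CPM in WT 8 week sham, 247 in the MerTK KO P1 MI cells, 139 and 161 in the WT P1 MI pair, and 236 in WT P1 sham. Macrophages had 10.8, 25.3, 135, 84.6 and 244 CPM in the same libraries. Single-lineage mast cells were higher in 4 of these 5 libraries and macrophages in WT P1 sham. The mast cell levels rested on 3, 3, 9, 29 and 21 UMIs in the same order, and the 3 of MerTK KO P1 MI lay in 1 cell. Over all members, mast cells were higher in 3 of the 5 libraries. The fold over all members was 0.12 ± 0.45 on the log2 scale (adjusted p = 0.919), with no call in either set of members. Against all other kept barcodes Hpgds was higher by 2.48 ± 0.40 (adjusted p = 7.1e-08) and Alox5 by 3.25 ± 0.39 (adjusted p = 2.99e-14).

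**Figure D4:**
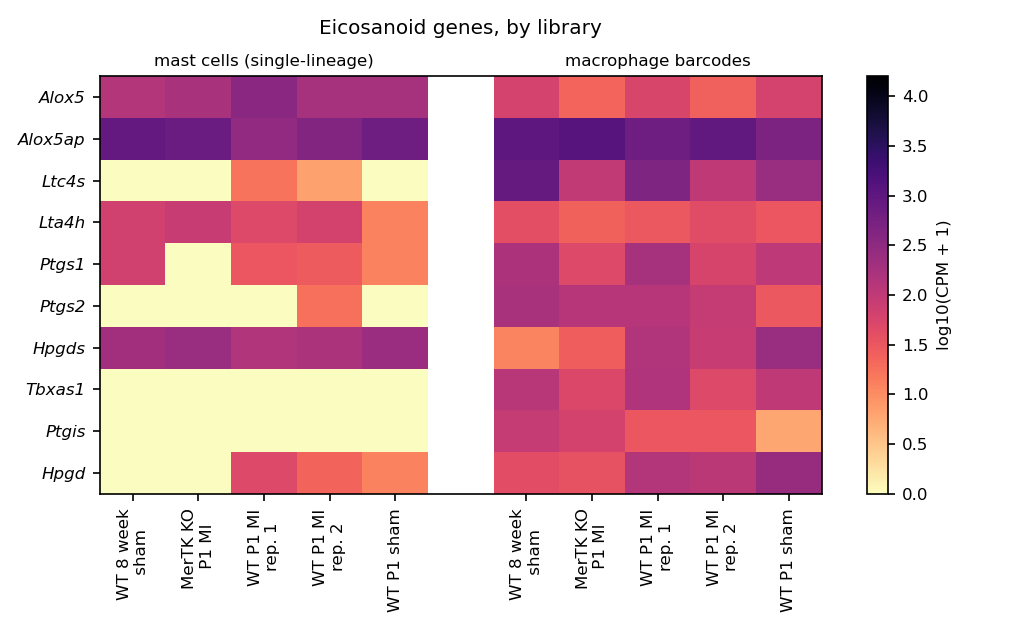
Level of 10 eicosanoid genes, as log10(CPM + 1), in single-lineage mast cells (left block) and macrophage barcodes (right block) of 5 libraries. Alox5 is higher in mast cells of every library, while Ltc4s is at most 1 UMI per library and Tbxas1 and Ptgis are at 0 in mast cells. Mast cells of WT 8 week sham and MerTK KO P1 MI held 2 Alox5 UMIs each, in 14964 and 12136 UMIs of all genes.

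Mertk, the receptor that the knockout label names, had 0 UMIs in the single-lineage members of all 5 libraries and 7 in all members together. With 360584 UMIs in single-lineage members, 3 counts would be 8.32 CPM, against 56.0, 22.7, 54.4, 18.04 and 47.9 CPM in macrophages of WT 8 week sham, MerTK KO P1 MI, WT P1 MI replicates 1 and 2 and WT P1 sham. This level of 3 counts is for the 5 libraries pooled and is not an exact upper limit. In WT 8 week sham and MerTK KO P1 MI alone, with 14964 and 12136 UMIs, a 0 could also occur at the macrophage level. Axl and Tyro3, relatives of Mertk, and the ligand Gas6 were also at 0 in single-lineage members, and Pros1, the other ligand, averaged 27.7 CPM. In all members, Mertk was lower than in macrophages by a log2 fold of -2.41 ± 0.60 (adjusted p = 0.00319, edgeR's quasi-likelihood test), Axl by -2.22 ± 0.57 and Gas6 by -1.41 ± 0.49.

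Cytokine genes went in both directions. Against all other barcodes 7 of 26 were higher and 4 lower in all members (median 0.09), and 8 were higher and 8 lower in single-lineage members (median 0.08). Il4, a cytokine of type 2 immunity, was higher by a log2 fold of 6.92 ± 0.42 in 5 of 5 libraries, and Ccl2, which attracts monocytes, by 2.86 ± 0.46 (adjusted p = 3.64e-08, edgeR's quasi-likelihood test). Il13, Tnf, Csf2, Ccl1 and Ccl7 were the other genes higher in all members. Ccl1 lost the call in single-lineage members, at 1.60 ± 0.80 (adjusted p = 0.146). Some of these calls rested on few cells. Csf2 had 0 UMIs in single-lineage members of WT 8 week sham, MerTK KO P1 MI and WT P1 MI replicate 1, 45 in WT P1 MI replicate 2, of which 38 lay in 1 cell, and 1 in WT P1 sham. Ccl7 had 22, 0, 30, 84 and 56 UMIs in the same order, of which 71 of the 84 lay in 1 cell and all 30 in another. Il1b, the main inflammasome cytokine, was lower by -2.36 ± 0.45 (adjusted p = 7.72e-06) and had 2 UMIs in the 62 single-lineage members, against 1453, 4520, 726, 2413 and 635 CPM in macrophages of WT 8 week sham, MerTK KO P1 MI, WT P1 MI replicates 1 and 2 and WT P1 sham. DESeq2 did not call Il1b against all other barcodes. Cxcl2, a neutrophil chemoattractant, was lower by -2.23 ± 0.41. Of 18 tested cell cycle genes 0 were called in all members and 2 were lower in single-lineage members, Cdk1 at -1.43 ± 0.56 (adjusted p = 0.0421) and Ccnb2 at -1.73 ± 0.65 (adjusted p = 0.0335). Mki67, a marker of dividing cells, had a UMI in 8 of the 62 single-lineage members. Among immediate early genes, 4 of 20 were higher (Jun, Egr3, Nr4a2 and Nr4a3) and 3 lower (Atf3, Klf4 and Btg2), and in single-lineage members 6 were higher, with Ier2 and Nr4a1 added, and the same 3 lower. These genes can respond to tissue digestion, and that part was not tested.

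Among single-lineage members rich in Cma1, Mcpt4 was either abundant or nearly absent. This pattern was chosen after the values were seen, and since Mcpt4 is a rule gene it is a description. Of 47 single-lineage members with at least 200 Cma1 UMIs, 13 had 0 or 1 Mcpt4 UMI and the other 34 had between 76 and 848, with none in between. Outside that set intermediate values occurred, such as a mixed member of WT P1 MI replicate 2 with 21 Mcpt4 and 692 Cma1 UMIs. In WT P1 MI replicate 2, 82 of 10042 kept barcodes that were neither members nor natural killer cells (0.817%) had a Mcpt4 UMI, with at most 2 in a barcode. Among the B cells of that library, 2 of 247 (0.81%) had one, at a median depth of 6415 UMIs. The 13 were not shallow or poor in other proteases. They had 279 to 1238 Cma1 UMIs (median 731), a median of 256 Cpa3 and 178 Tpsb2 UMIs and a median of 7440 UMIs in all, against 220 to 1031 Cma1 UMIs (median 481), medians of 101 Cpa3 and 118.5 Tpsb2 UMIs and 6811 UMIs in all for the 34. They came from 4 libraries, with 0 of 1 in WT 8 week sham, 1 of 3 in MerTK KO P1 MI, 2 of 7 and 6 of 25 in the WT P1 MI pair, and 4 of 11 in WT P1 sham. Both infarcted and sham hearts of WT neonates thus held the 2 kinds. Across the 30 single-lineage members of WT P1 MI replicate 2, which share a library, Spearman's rho of CPM was -0.26 between Cma1 and Mcpt4, 0.58 between Cpa3 and Tpsb2 and 0.57 between Tpsb2 and Hdc, given as a description.

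The balance of the tryptases differed between libraries. Tpsab1 (chr17:25343245-25345562, minus strand) and Tpsb2 lie 20.7 kb apart and are similar in sequence, so reads between them may be shared or lost in counting. C57BL/6 mice are known for a splice-site defect in Tpsab1 that removes the protein mMCP-7. In single-lineage members Tpsab1 had 12 UMIs in WT 8 week sham, 542 in the MerTK KO P1 MI cells, 42 and 140 in the WT P1 MI pair, and 74 in WT P1 sham. It made up 54.9% of Tpsab1 and Tpsb2 UMIs together in MerTK KO P1 MI (exact 95% interval 51.7% to 58.0%), against 2.85% and 3.09% in the WT P1 MI pair, 2.54% in WT P1 sham and 8.05% (4.23% to 13.6%) in WT 8 week sham. These intervals cover counting error only and not the spread between cells. All 4 single-lineage cells of MerTK KO P1 MI carried Tpsab1, at 9, 18, 167 and 348 UMIs, or 5187 to 79035 CPM, whereas the highest single-lineage cell of the WT libraries had 3709 CPM. The same 4 cells had 18, 22, 93 and 313 Tpsb2 UMIs, so 348 of the 542 Tpsab1 UMIs lay in 1 cell and the balance varied among them. How many other genes would set these 4 cells apart in the same way was not counted. The other 3 members of MerTK KO P1 MI, all mixed, had 6, 0 and 4 Tpsab1 UMIs and lay within the range of the WT cells. With 4 cells of 1 library, this is a value side by side and not a test of genotype.

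In the other knockout library, MerTK KO P1 sham, which had no member, all deposited barcodes held 119 Tpsab1 and 21 Tpsb2 UMIs (85.0% Tpsab1). Of these Tpsab1 UMIs 112 lay in 1 barcode with 15174 UMIs, 0 of the 5 rule genes and 1442 UMIs of Saa3, 409 of S100a8 and 29 of Arg1, genes of inflamed macrophages and neutrophils. The barcode of that library with 104 rule-gene UMIs that failed the filter had 2 Tpsab1 and 21 Tpsb2 UMIs. Most Tpsab1 UMIs of the sham knockout library thus lay in a barcode that was not a mast cell by the rule. The 1 barcode with the mast cell genes failed the filter and held few tryptase UMIs. It cannot show whether mast cells of that library had a high Tpsab1 share.

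**Figure D5:**
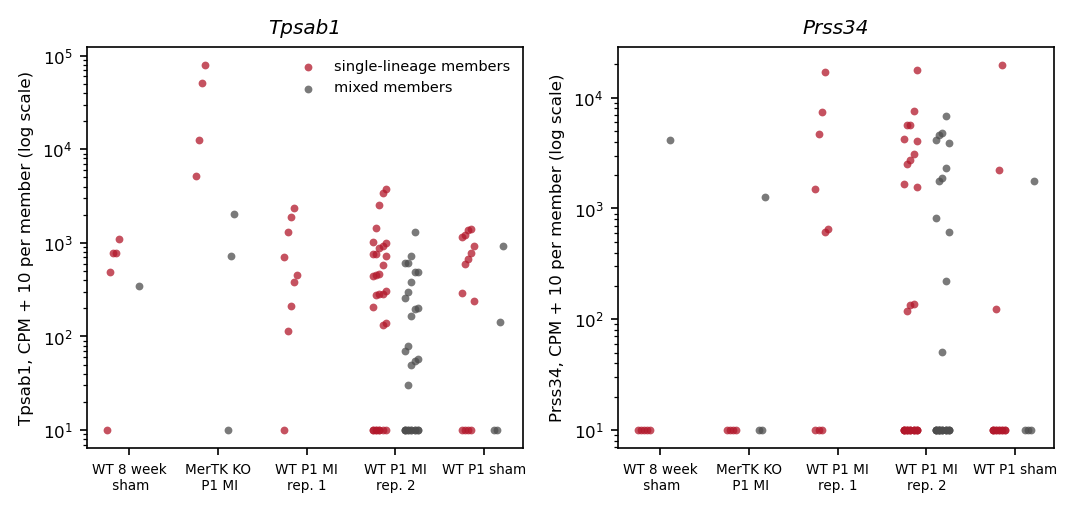
Tpsab1 (left) and Prss34 (right) in each mast cell barcode, as CPM + 10 on a log scale, by library, with single-lineage members in red and mixed members in grey. The 4 single-lineage cells of MerTK KO P1 MI lie between 5187 and 79035 CPM of Tpsab1, and its 3 mixed members lie within the WT range. The WT P1 libraries each hold a cell between 16873 and 19614 CPM of Prss34.

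Prss34 (chr17:25298394-25300165, plus strand), 43.1 kb from Tpsab1, was uneven among cells. It had 0 UMIs in single-lineage members of WT 8 week sham and of MerTK KO P1 MI, 319 and 318 in the WT P1 MI pair, and 181 in WT P1 sham. Single cells held much of this, namely 249 of 319 UMIs, 143 of 318 and 177 of 181 in those 3 libraries. A UMI was found in 6 of 9, 14 of 30 and 3 of 14 single-lineage cells there. The 1 mixed member of WT 8 week sham had 25 Prss34 UMIs and 1 of the 3 mixed members of MerTK KO P1 MI had 4, so the gene was not missing from those libraries. Of 5 tested basophil markers 3 were higher (Prss34, Cd200r3 and Il4), 0 lower, and Mcpt8 and Itga2 were not called, in all members and in single-lineage members alike. Over all tested genes 2.57% were higher in all members.

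For infarct, WT P1 MI replicate 2 (59 members) and WT P1 sham (18 members) met the minimum of cells, and WT P1 MI replicate 1 (9 members) is given beside them. With 1 library on the sham side there is no test, and intervals are exact and cover counting error only. Over all members 573 of 4997 genes with at least 30 UMIs (11.5%) were at least 2-fold higher in WT P1 MI replicate 2 and 365 (7.3%) lower, but with single-lineage members these were 69 of 1118 (6.17%) and 40 (3.58%). In WT P1 MI replicate 1, set against the same sham library, 124 of 1421 genes (8.73%) were higher and 237 (16.7%) lower over all members, but 21 of 647 (3.25%) and 30 (4.64%) with single-lineage members. Mixed members were 29 of 59 in WT P1 MI replicate 2, 0 of 9 in WT P1 MI replicate 1 and 4 of 18 in WT P1 sham. In single-lineage members the rule proteases lay within a 2-fold difference in both infarct libraries. The rule genes chose the members, so their ratios are a description only. Cma1 had a log2 ratio of 0.14 (0.094 to 0.18) in WT P1 MI replicate 2 and -0.31 (-0.37 to -0.26) in replicate 1 against WT P1 sham. Cpa3 had 0.0020 (-0.069 to 0.074) and -0.62 (-0.72 to -0.51), and Kit -0.0041 (-0.41 to 0.42) and 0.082 (-0.45 to 0.60).

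Among the genes with larger ratios in single-lineage members, named here after their values were seen, Tph1 was higher in both infarct libraries. It had 595 CPM in WT P1 MI replicate 2 (107 UMIs) and 803 CPM in replicate 1 (52 UMIs), against 191 CPM in WT P1 sham (17 UMIs), which is a log2 ratio of 1.60 (0.89 to 2.47) and 2.04 (1.25 to 2.95). Over all members the ratio was 0.30 (-0.24 to 0.91) in replicate 2 and 2.53 (1.87 to 3.22) in replicate 1, and 41 of its 107 single-lineage UMIs lay in 1 cell. Single-lineage members of WT 8 week sham, without infarction, had 12 Tph1 UMIs in 14964, 8 of them in 1 cell, a level like that of replicate 1. Each ratio in this paragraph was taken over the same sham library, so the replicates are not independent comparisons. Replicate 1 had 0 mixed members, so its ratios over all members differ from those of single-lineage members only through WT P1 sham. In that sham library mixed members held 61.6% of the UMIs of members. Fcer1a was lower in both infarct libraries, at -0.72 (-1.08 to -0.35) in replicate 2 and -1.43 (-2.07 to -0.87) in replicate 1. Over all members it was at -0.48 (-0.78 to -0.17) and -0.12 (-0.76 to 0.44). Ccl2 was at -0.81 (-1.03 to -0.59) and -1.92 (-2.35 to -1.53), and over all members at -0.90 (-1.08 to -0.72) and -0.72 (-1.15 to -0.33). In replicate 1 Fcer1a and Ccl2 each had a UMI in 4 of 9 cells. There 20 of 31 Fcer1a UMIs lay in 1 cell, and 47 of 60 Ccl2 UMIs lay in 1 cell. Klf6 and Dusp1, immediate early genes, were at -1.26 and -0.75 in replicate 2 and -1.44 and -2.76 in replicate 1. Over all members Klf6 was at -0.63 and -0.95, and Dusp1 at -0.065 (-0.30 to 0.18) and -2.001 (-3.04 to -1.22). Il13 was at 1.44 (0.79 to 2.22) in replicate 2, where 37 of 118 UMIs lay in 1 cell, and had 3 UMIs in replicate 1, against 21 in WT P1 sham. Its ratio over all members of replicate 2 was 0.55 (-0.029 to 1.24). The header of replicate 2 names another Cell Ranger version (6.1.0) than those of replicate 1 and WT P1 sham (4.0.0), and its part in these ratios was not tested.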

How the data were processed

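UMI counts per gene and barcode were deposited by the authors as raw numbers with no normalization. The submitters' processing notes name Cell Ranger and GRCm38 (mm10). Per the file headers, the Cell Ranger version was 6.1.0 in WT 8 week sham and in replicate 2 of WT P1 MI, and 4.0.0 in the other 5 libraries. Members and gene lists were chosen with earlier results of these data known.

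Counts were summed per library over mast cells, other kept barcodes and macrophage barcodes, since cells are not replicates. The design asked for at least 3 libraries with at least 15 mast cells. Only 2 had these, so the paired fits use the 5 libraries with at least 5, a choice made after seeing the data. They were fitted with edgeR 4.0.16 in R 4.3.3 (glmQLFit, glmQLFTest, TMM, filterByExpr, library as block), with Benjamini-Hochberg adjustment over all tested genes. Errors are approximate standard errors from the F statistic. No doublet caller was run, and mixed members are counted instead. Python 3.11.15, pandas 2.3.3 and scipy 1.17.1 gave sums, exact intervals and the exact permutation test. Infarct ratios are of CPM with 0.5 counts added. Genes named are the 20 largest differences with at least 50 CPM, the rule genes, protease, IgE receptor, eicosanoid and Mertk family genes, and up to 4 of other lists, and infarct genes and a few others were named after their values were seen. Gene positions are from GENCODE vM21 on GRCm38 and promoters from RefSeq on GRCm38.p6. The labels do not say that libraries came from separate animals, and the p-values then measure only how far these libraries vary, which may be technical. On simulated data for the comparison with all other barcodes (11785 genes), 100% of genes set 3 log2 units higher were called, 78% of those 2 higher, 54% of those 2 lower and 84% of those 3 lower. Alternatives were DESeq2 1.42.0, total counts, no filter, other member rules and leaving out each library.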

Additional observations from a re-analysis of the deposited data

How the results depend on the processing

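Counting each named gene once per comparison and alternative, its side of the threshold was kept 2288 times, and it became stronger 92 times, weaker 102 times and reversed 11 times. A change of sign was counted as reversed only where at least 1 of the 2 fits called the gene. Changes of sign among genes called in neither fit are part of the 2288. Against all other kept barcodes, the 309 higher genes became 530 with single-lineage members and 478 with no filter on low counts, and lay between 176 and 354 when 1 library was left out (176 without WT P1 MI replicate 2 and 199 without WT P1 sham). The 676 lower genes became 1697 with at least 4 of 5 rule genes, 2431 with single-lineage members and 189 with DESeq2, and lay between 459 and 778 when 1 library was left out. Single-lineage members had fewer UMIs from other lineages by construction. Against barcodes with a Ptprc UMI only, which leaves out most stromal cells, the log2 differences of H19 (0.78), Mest (1.46), Igf2 (0.83), Cdkn1c (0.22), Cdh5 (1.37), Emcn (2.14), Kdr (1.46), Pdgfra (0.080) and Actc1 (0.017) turned positive. Against macrophages, the 378 higher genes became 1064 and the 667 lower genes 1056 with no filter on low counts, and higher genes lay between 191 (without WT P1 MI replicate 2) and 477, with 222 without WT P1 sham, while Rora turned to -3.08 with single-lineage members and Hbb-bs lay between -3.48 and 1.99 when 1 library was left out (positive without WT P1 MI replicate 1). Where no construction is named, the cause was not tested.

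For infarct, the 573 higher and 365 lower genes became 69 and 40 with single-lineage members, 124 and 237 with WT P1 MI replicate 1 in place of replicate 2, and the lower ones 235 with at least 4 of 5 rule genes. With at least 2 of 5 rule genes the share was 0.131% in WT 8 week sham, 2.33% and 1.28% in the WT P1 MI pair, and 1.89% in WT P1 sham. Among barcodes with a Ptprc UMI it was 0.0404% in MerTK KO P1 MI and 2.64% and 1.24% in the WT P1 MI pair, and with single-lineage members it was 0.296% in WT P1 MI replicate 2. No paired analysis was possible because the groups share fewer than 2 replicate numbers. Fits of P1 against 8 weeks, of class by age and of infarct or genotype were not run, since no more than 2 libraries held 15 mast cells. Small numbers of cells limit every adult and knockout value.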

Other observations

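Cma1 was also found outside mast cells. In WT 8 week sham only 52.4% of the UMIs of the rule proteases lay in members, against 96.9% in MerTK KO P1 MI, 97.9% and 98.1% in the WT P1 MI pair, and 98.3% in WT P1 sham. Barcodes with at least 3 of the natural killer cell genes Ncr1, Klrb1c, Klre1 and Prf1, a set chosen after the data were seen, held a Cma1 UMI in 620 of 1215 cases in WT 8 week sham (51.0%, exact 95% interval 48.2% to 53.9%, median depth 3723 UMIs, 193 CPM, at most 15 UMIs in a barcode). B cell barcodes of the same library, which should lack the gene, held one in 42 of 3691 (1.14%, 0.821% to 1.54%, median depth 3059 UMIs). Mcpt4, Cpa3 and Tpsb2 had 0 UMIs in these natural killer barcodes, from which members had been left out. Mast cells were chosen for carrying several of these genes at once, so their joint presence there is set by the rule and is not a result. The natural killer set held a Cma1 UMI in 0 of 6 barcodes of WT 8 week MI, 2 of 23 of MerTK KO P1 MI, 0 of 27 of MerTK KO P1 sham, 1 of 6 and 8 of 34 of the WT P1 MI pair, and 3 of 21 of WT P1 sham.

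Outside the filter, 8 barcodes carried at least 3 rule genes, with 16.1% to 75.5% mitochondrial UMIs and 24 to 193 rule-gene UMIs. They are not among the 99 members.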
